A study of Fukomys damarensis and Heterocephalus glaber and Mus musculus with 160 samples.

Results

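Guinea pig liver was represented by 9 of the 99 histone peak lists of the series: H3K4me3, H3K27ac and H3K4me1, each from the same 3 animals (GuineaPig7, GuineaPig8 and GuineaPig9). All 9 lists whose titles name guinea pig, liver and a histone mark were taken, and each mark was set against the other marks of the same animal. The 3 animals were wild-type adult males of 2.3 months, and the labels name no strain and no treatment. ChIP-seq recovers DNA bound by an antibody from crosslinked chromatin, and a peak is a stretch that the authors' caller found enriched over input chromatin. The groups used for comparison were the hearts of the same 3 guinea pigs (9 lists), livers of 4 wild-type adult male C57BL/6J mice of 2 months (12 lists), and livers of 5 wild-type adult male naked mole-rats of 13 to 17 months (15 lists). The whole organ was diced, so every list mixes the cell types of the tissue.

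Each mark is a chemical group on the tail of histone H3. Trimethylation of lysine 4 (H3K4me3) is typical of promoters, where the SET1 and MLL complexes deposit it around transcription start sites. Monomethylation of the same lysine (H3K4me1) is typical of enhancers and of the flanks of promoters. Acetylation of lysine 27 (H3K27ac), written by CBP and p300, is typical of promoters and enhancers in use. A single H3 tail carries either mono- or trimethylation at lysine 4, whereas acetylation of lysine 27 can accompany either.

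The 3 marks differed in number and extent. H3K4me3 lists held 16530, 15898 and 14782 peaks in GuineaPig7, GuineaPig8 and GuineaPig9, H3K27ac lists held 100473, 91478 and 100322, and H3K4me1 lists held 136264, 132064 and 119768. The ranges of the marks did not overlap. Peaks covered 17.3 ± 2.06 Mb for H3K4me3, 104 ± 5.96 Mb for H3K27ac and 124 ± 18.7 Mb for H3K4me1 (SD, n = 3), and GuineaPig9 had the smallest H3K4me1 extent, at 103 Mb against 139 Mb in GuineaPig7. The median H3K4me3 peak was 949 ± 65.7 bases wide, the median H3K27ac peak 588 ± 12.6 bases and the median H3K4me1 peak 637 ± 35.3 bases. Among the strongest 14782 peaks of each list by q, the order of H3K4me3 was turned: H3K27ac peaks were wider than H3K4me3 peaks by 1.19 on the log2 scale. Read depth is unknown, since the lists carry no read numbers. Libraries of 1 mark carry neighbouring library numbers, so the library series and the mark cannot be told apart. As a check on the tissue, 65.5% to 81.2% of H3K27ac and H3K4me1 peaks of 1 liver were found, on average, in the liver of another animal, against 27.8% to 35.4% in its heart. For H3K4me3 the livers gave 84.1% to 95.8% and the hearts 86.2% to 89.0%. Marker genes of liver cells were not analysed here.

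Nearly all H3K4me3 peaks lay under H3K27ac, and far fewer under H3K4me1. A peak was counted as overlapped where the overlap reached 50% of the shorter peak. Of the H3K4me3 peaks, 97.4%, 96.9% and 98.6% in GuineaPig7, GuineaPig8 and GuineaPig9 were overlapped by H3K27ac, and 39.9%, 25.5% and 21.1% by H3K4me1. The lowest share under H3K27ac was thus far above the highest under H3K4me1. Seen from the acetylation, 14.6% ± 1.22 of H3K27ac peaks carried H3K4me3 and 61.8% ± 5.40 carried H3K4me1 (SD, n = 3). Most acetylated sites of this liver therefore paired with the monomethyl mark in each animal at 50% overlap. With the H3K27ac summit required inside an H3K4me1 peak, the shares were 54.4%, 54.8% and 44.7%, so GuineaPig9 fell below 50%. Of the H3K4me1 peaks, 48.1% ± 3.16 carried H3K27ac and 3.58% ± 1.22 carried H3K4me3. By bases, 96.1% ± 1.20 of the sequence under H3K4me3 was also under H3K27ac and 24.8% ± 8.27 under H3K4me1.

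All 3 of these within-mark differences had groups that did not overlap: 68.8 points for H3K4me3, 47.2 points for H3K27ac and 44.5 points for H3K4me1, each with an exact two-sided permutation p of 0.1, also after Benjamini-Hochberg adjustment over the 3. That is the smallest p that 3 against 3 values allow, so no test within this liver could pass 0.05. Both shares of a mark come from the same 3 lists, and this test leaves that pairing aside. A paired sign-flip test over the animals has a smallest p of 0.25. The order for H3K27ac depended on list length. Among the strongest 14782 peaks of each list, 67.4% of H3K27ac peaks carried H3K4me3 and 28.1% carried H3K4me1, a difference of -39.3 points. That number is the whole H3K4me3 list of GuineaPig9 but a small part of the H3K4me1 lists of 119768 to 136264 peaks. Against full lists at 50% overlap, the strongest quartile of H3K27ac peaks by fold kept the order. There 78.6% ± 2.99 carried H3K4me1 and 49.9% ± 2.21 carried H3K4me3 (SD, n = 3). With the H3K27ac summit required inside the other peak, the shares of this quartile were 48.4% ± 3.75 and 47.5% ± 2.42. By that rule the H3K4me1 share was the higher one in GuineaPig7 only, so the order was not kept.

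**Figure D1:**
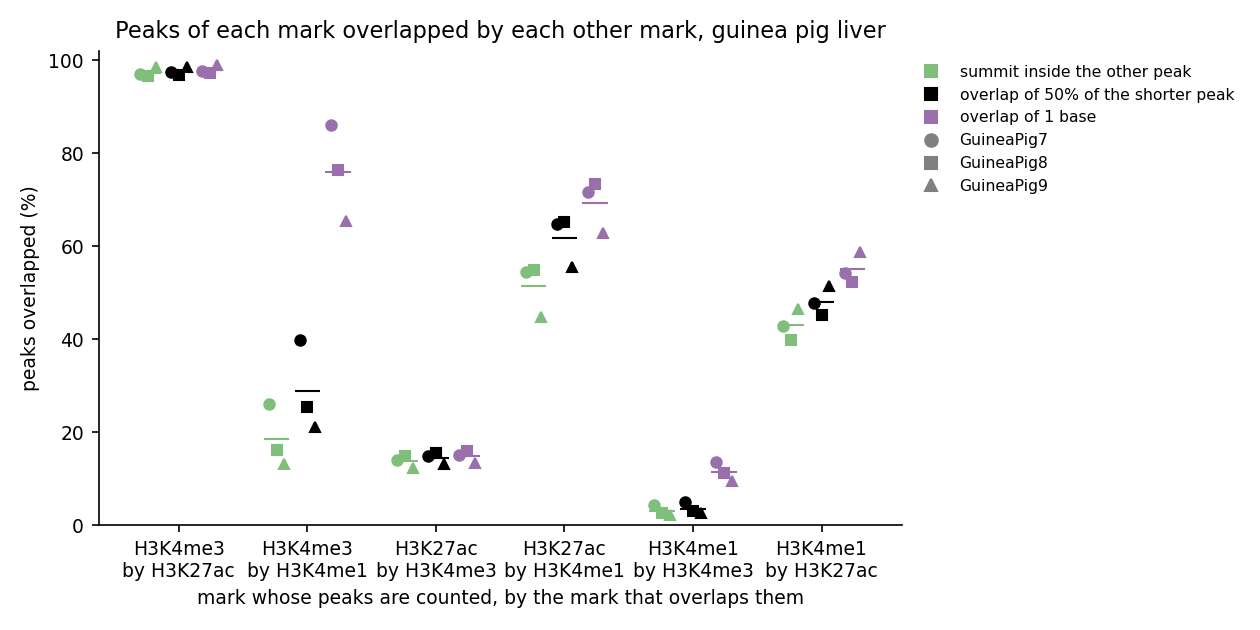
Percent of the peaks of 1 mark (y axis) overlapped by each other mark of the same animal (x axis), in guinea pig liver, with symbols for the 3 animals, colours for the 3 rules of overlap and short lines for the means. The H3K4me3 share under H3K4me1 moves most with the rule, from a mean of 18.5% with the summit inside to 76.0% with 1 shared base, while the share under H3K27ac stays between 97.3% and 97.9%.

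The rule of overlap mattered for 1 pair above all others, H3K4me3 and H3K4me1. With the H3K4me3 summit required inside an H3K4me1 peak the mean share was 18.5% ± 6.70, and with 1 shared base it was 76.0% ± 10.3 (SD, n = 3). The gap between these rules is made of H3K4me3 peaks that H3K4me1 overlaps away from the summit. They were 60.2%, 60.1% and 52.3% of H3K4me3 peaks in GuineaPig7, GuineaPig8 and GuineaPig9. These edge-touched peaks were the strongest and widest class of H3K4me3 peaks. Their median fold over input was 36.3, 24.0 and 22.0, against 6.94, 6.01 and 6.13 for peaks with H3K4me1 over the summit and 10.0, 11.4 and 12.3 for peaks that H3K4me1 did not touch. Their median width was 1292, 1150 and 1079 bases, against 584, 516 and 518 bases where H3K4me1 lay over the summit. The 3 classes were chosen after the values were seen and are given as a description.

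H3K4me1 formed flanks around H3K4me3 summits taken as a whole. It covered 26.0%, 16.2% and 13.1% of summits in the 3 animals and was most frequent 800 to 900 bases away, where it covered 53.5%, 48.8% and 43.0% of positions. At 5000 bases it was at 19.1% ± 2.27. H3K27ac ran the other way, from 97.3% ± 1.02 at the summit to 52.1% ± 1.47 at 1000 bases and 16.1% ± 0.718 at 5000 bases. With a window of 500 bases outside each edge, 60.0%, 52.0% and 41.6% of H3K4me3 peaks had H3K4me1 on both sides, and 6.83%, 8.09% and 13.3% had it on neither. Peaks with both flanks had a median fold of 26.6, 21.1 and 20.2, and peaks with neither 7.67, 7.44 and 8.50, so the classes did not overlap between animals.

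The dip in H3K4me1 was deeper where H3K4me3 was stronger. Peaks were divided into 4 quartiles of H3K4me3 fold within each list. In the weakest quartile H3K4me1 covered 45.1% ± 12.8 of summits, in the next 23.2% ± 10.7, then 4.66% ± 2.89, and in the strongest 0.771% ± 0.571 (n = 3). Around the weakest quartile there was no dip on average, with 44.6% ± 10.1 at 200 bases and 45.1% ± 7.02 at 500 bases. There H3K4me1 was highest at the summit in GuineaPig7 and at 500 bases in GuineaPig8 and GuineaPig9. Around the strongest quartile it reached 59.2% ± 5.54 at 1000 bases. Under the 1-base rule the order was the opposite, and H3K4me1 touched 67.9%, 72.2%, 79.5% and 84.4% of peaks from the weakest to the strongest quartile. Across overlapping pairs the fold of H3K4me3 and of H3K4me1 ran opposite ways, with Spearman's rho of -0.237, -0.229 and -0.235 over 6599, 4050 and 3113 pairs. The fold of H3K4me3 and of H3K27ac ran together, with rho of 0.527, 0.483 and 0.512 over 16092, 15403 and 14571 pairs. These are correlations across peaks of 1 animal, which share the same input library, and peaks are not independent replicates.

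**Figure D2:**
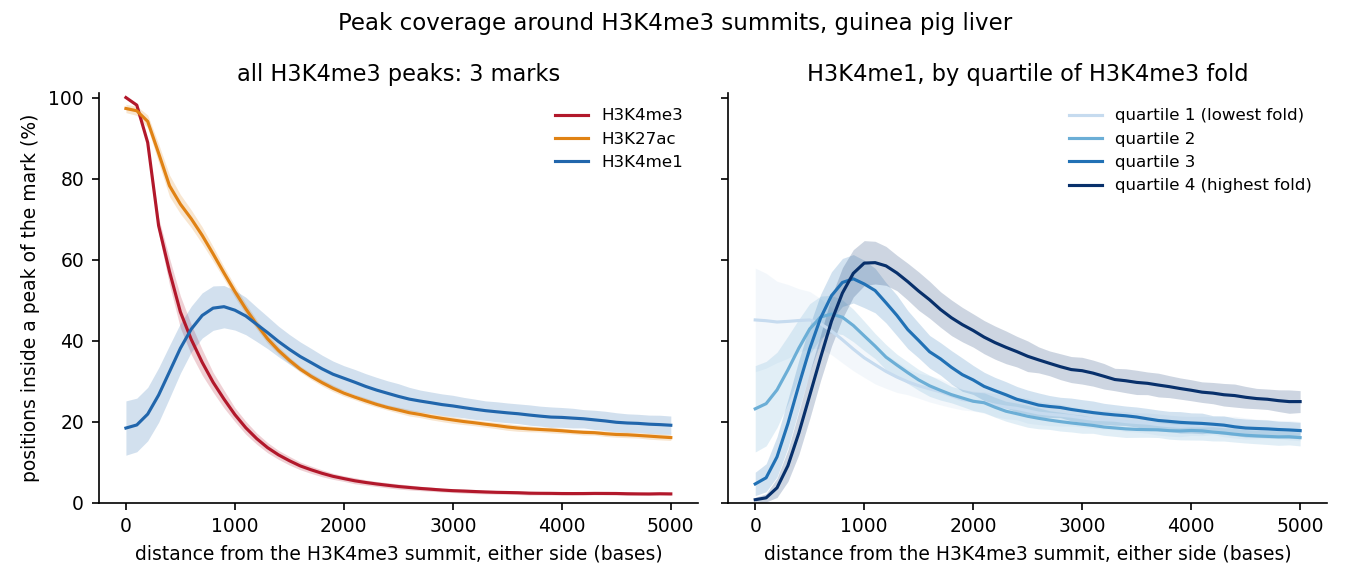
Percent of positions inside a peak of each mark (y axis) by distance from H3K4me3 summits, pooled over both sides, in bases (x axis); lines are means and bands the SD over the 3 animals. On the left, H3K4me1 is at 18.5% at the summit and 48.4% at 900 bases, and on the right it is at 0.771% at the summits of the strongest quartile of H3K4me3 peaks.

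Acetylated sites without H3K4me3 had no such dip. H3K4me1 covered 59.6%, 62.0% and 49.5% of the summits of H3K27ac peaks without H3K4me3 in GuineaPig7, GuineaPig8 and GuineaPig9, its highest point in each animal. It covered 36.6% ± 4.76 of positions 1000 bases away. In the strongest quartile of these peaks the share at the summit was 79.1%, 81.9% and 68.9%. At these peaks coverage by H3K4me1 was highest at the summit, whereas around H3K4me3 summits taken as a whole it was highest to the side.

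Distances were taken between the summits themselves. Over pairs of peaks that overlapped by 50% of the shorter, the median distance from an H3K4me3 summit to the H3K27ac summit was 77, 77 and 80 bases in the 3 animals, and 56.9% ± 0.387 of pairs lay within 100 bases. From H3K4me3 to H3K4me1 it was 475, 409 and 385 bases, and from H3K27ac to H3K4me1 374, 379 and 324 bases. The H3K4me3 to H3K27ac distance was shorter than the other distances by 2.42 and 2.18 on the log2 scale, with no overlap (exact two-sided permutation p = 0.1, adjusted p = 0.1). The H3K4me3 to H3K4me1 distance was longer for wide peaks. In the narrowest quartile of H3K4me3 peaks its median was 287, 255 and 229 bases, and in the widest quartile 974, 932 and 795 bases.

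**Figure D3:**
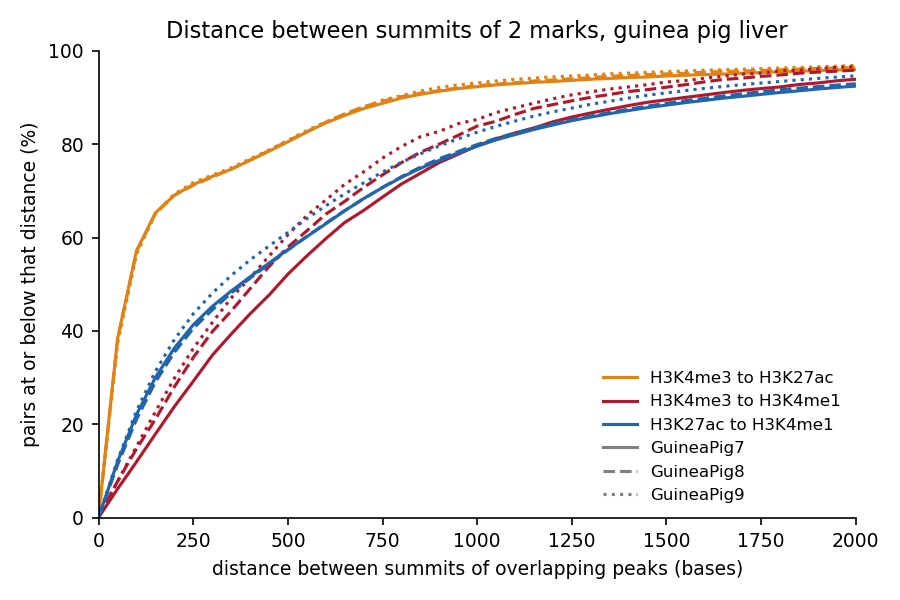
Percent of overlapping pairs (y axis) whose summits lie at or below a distance in bases (x axis), for 3 pairs of marks by colour and 3 animals by line style, in guinea pig liver. H3K4me3 and H3K27ac summits lie closest, with 56.9% of pairs within 100 bases against 14.0% for H3K4me3 and H3K4me1 and 22.0% for H3K27ac and H3K4me1.

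Each H3K4me3 peak was next placed by the marks on it. H3K27ac alone accompanied 59.0%, 72.9% and 78.1% of H3K4me3 peaks in GuineaPig7, GuineaPig8 and GuineaPig9. Both other marks accompanied 38.3%, 24.0% and 20.5%, in the order of the animals' H3K4me1 extents of 139, 129 and 103 Mb, whose part in this was not tested. Peaks without H3K27ac were few: 172, 253 and 127 had no other mark, and 266, 242 and 84 had H3K4me1 only. Their median folds were 5.36, 5.46 and 5.05 with no other mark and 4.98, 5.06 and 4.98 with H3K4me1 only, low and close together. With H3K27ac alone the median fold was 30.3, 20.4 and 18.01, with no overlap with either class. It exceeded peaks with no other mark by 2.08 ± 0.37 on the log2 scale (SD of the 3 animals' differences, exact two-sided permutation p = 0.1, adjusted p = 0.113 over 9 comparisons). Compared within quartiles of width, of which only 2 or 3 per animal held enough peaks of each class, the difference was 0.82, and that of peaks with both other marks was 0.28 in place of 0.84.

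H3K4me3 peaks with all 3 marks stood between these classes. Their median fold was 11.5, 8.82 and 8.43, lower than that of peaks with H3K27ac alone by 1.23 on the log2 scale (exact two-sided permutation p = 0.1, adjusted p = 0.133 over 4 comparisons added after the values were seen). They were also narrower, with medians of 843, 761 and 746 bases against 1144, 1020 and 931 bases. This order holds for H3K4me1 that lies well onto the peak. With 1 shared base it turned, to 0.79 higher in fold and 0.47 higher in width on the log2 scale, since that rule adds the edge-touched peaks to the class. Among the 1654, 1593 and 1479 H3K4me3 peaks of highest fold, 77.8%, 87.2% and 88.6% carried H3K27ac alone and 22.2%, 12.8% and 11.4% both other marks.

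Most H3K27ac peaks did not carry H3K4me3. Peaks with H3K4me1 alone were 54.1%, 55.6% and 47.3% of the list in GuineaPig7, GuineaPig8 and GuineaPig9, and peaks with no other mark 31.0%, 28.8% and 39.5%. The median fold was 4.19, 4.11 and 4.24 with no other mark and 5.24, 5.23 and 5.39 with H3K4me1, a difference of 0.34 ± 0.01 on the log2 scale. The classes with H3K4me3 stood well above both. With H3K4me3 alone the median fold was 17.9, 14.7 and 18.3, and with both marks 22.9, 20.2 and 24.2. Against peaks with no other mark, these classes were higher by 2.02 ± 0.15 and 2.42 ± 0.11 on the log2 scale. No class overlapped the class with no other mark (exact two-sided permutation p = 0.1, adjusted p = 0.113 for each of the 3).

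Acetylated peaks with all 3 marks were also the widest. Their median width was 2019, 2051 and 2131 bases, against 1199, 1120 and 1230 bases with H3K4me3 alone and 401, 384 and 404 bases with no other mark. A wide peak has more bases on which another mark can fall, and width moved with class throughout. Compared within quartiles of width, the fold differences from peaks with no other mark were 1.05 for H3K4me3 alone, 0.19 for H3K4me1 alone and 0.90 for both. With the summit of the H3K27ac peak required inside the other peaks, peaks with both marks were 0.89 lower in fold and 0.50 lower in width than peaks with H3K4me3 alone, on the log2 scale. The share with H3K4me3 was 0.745% ± 0.387 in the weakest quartile of H3K27ac fold and 49.9% ± 2.21 in the strongest. For H3K4me1 it was 46.9% ± 6.15 and 78.6% ± 2.99. With the H3K27ac summit inside an H3K4me1 peak there was no steady rise. From the weakest to the strongest quartile that share was 44.3% ± 6.08, 51.0% ± 6.94, 61.7% ± 6.50 and 48.4% ± 3.75.

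The class medians of H3K4me1 fold lay between 4.04 and 6.61. No other mark was on 51.8%, 54.6% and 48.4% of them, which is the primed pattern in the usual naming of enhancers, and H3K27ac alone was on 43.2%, 42.3% and 48.9%. The median fold was 4.56, 4.04 and 4.41 with no other mark and 6.19, 5.60 and 5.41 with H3K27ac, higher by 0.40 ± 0.09 on the log2 scale with no overlap (exact two-sided permutation p = 0.1, adjusted p = 0.113). Widths were 508, 501 and 480 bases against 954, 1003 and 777 bases. Within quartiles of width the fold difference was 0.13. Peaks with both marks, 4.51%, 2.78% and 2.48% of the list, had folds of 6.36, 4.87 and 5.25, which overlapped those of peaks with H3K27ac alone. The share with H3K27ac was 29.9% ± 5.15 in the weakest quartile of H3K4me1 fold and 73.5% ± 0.681 in the strongest.

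**Figure D4:**
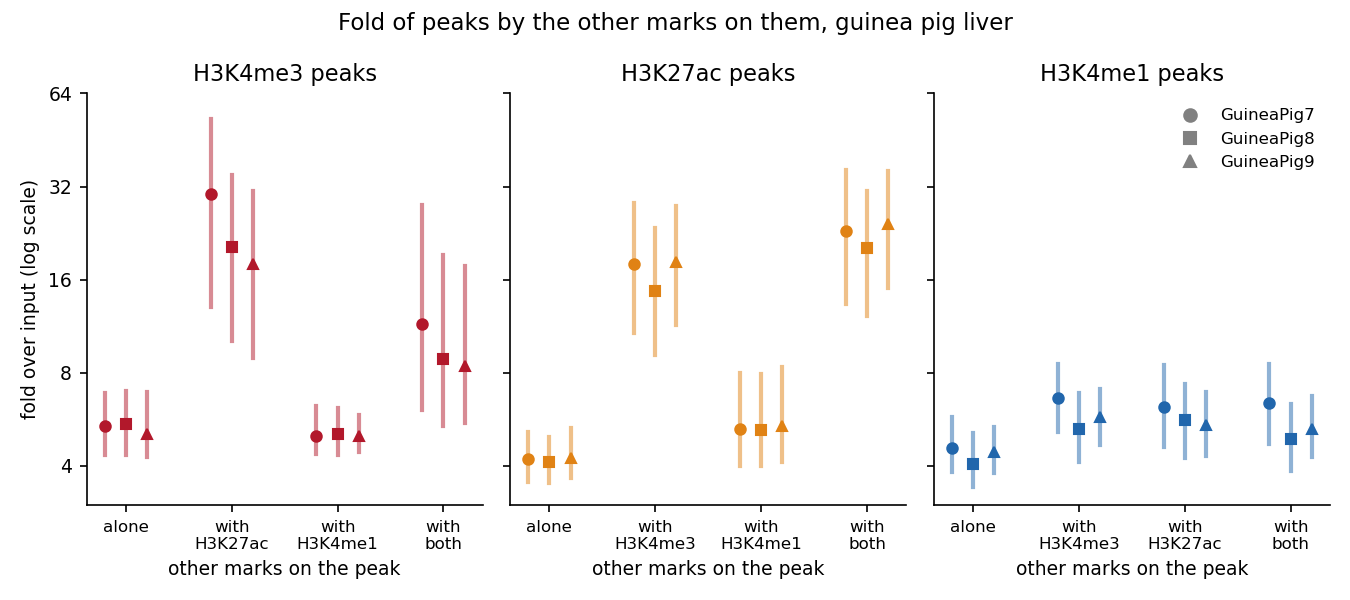
Fold over input (y axis, log scale) of the peaks of each mark by the other marks on them (x axis), with 1 symbol per animal at the median and a bar from the 25th to the 75th percentile. H3K27ac peaks with both other marks have the highest medians of their panel, 20.2 to 24.2, and H3K4me3 peaks with H3K27ac alone those of theirs, 18.01 to 30.3; folds are compared within a mark only.

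Sites without H3K4me3 differed in how far they lay from the nearest H3K4me3 summit. The median distance was 34.0 ± 1.80 kb for H3K27ac peaks with no other mark and 23.4 ± 0.561 kb for those with H3K4me1. For H3K4me1 peaks it was 24.9 ± 0.536 kb with no other mark and 17.6 ± 0.141 kb with H3K27ac (SD, n = 3). Within each mark, the peaks carrying both enhancer marks lay nearer.

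Counting each place once gave 172642, 165143 and 159844 marked regions. A region was an H3K4me3 peak, an H3K27ac peak without H3K4me3, or an H3K4me1 peak without either. H3K4me1 by itself was on 66882 ± 7724 regions (40.3% ± 3.71), H3K27ac with H3K4me1 on 50883 ± 3461 (30.7% ± 0.916) and H3K27ac by itself on 32375 ± 6744 (19.6% ± 4.63). H3K4me3 with H3K27ac was on 10965 ± 1045 (6.63% ± 0.854), and all 3 marks on 4390 ± 1727 (2.62% ± 0.928). With 1 shared base as the rule, H3K4me3 with H3K27ac was on 3608 regions on average and all 3 marks on 11799.

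The combinations differed in how often another animal carried the same one at the same place. H3K4me3 with H3K27ac recurred in 77.9% to 88.4% of regions over the 6 ordered pairs of animals, and H3K27ac with H3K4me1 in 58.6% to 70.8%. All 3 marks recurred in 40.2% to 69.0%, and where they did not, H3K4me3 with H3K27ac was the usual state in the other animal (30.1% on average). H3K4me1 by itself recurred in 40.2% to 61.0% and H3K27ac by itself in 29.0% to 49.8%. H3K4me3 by itself recurred in 11.05% to 34.6% and H3K4me3 with H3K4me1 in 9.40% to 34.5%, the lowest means of the 7 combinations, with ranges that overlapped that of H3K27ac by itself. The 6 pairs share animals and are not independent. Of the regions of GuineaPig7, 7290 carried H3K4me3 with H3K27ac in all 3 animals, 1258 all 3 marks, 25309 H3K27ac with H3K4me1, 19279 H3K4me1 by itself and 5630 H3K27ac by itself. H3K4me3 by itself was kept at 10 regions and H3K4me3 with H3K4me1 at 16.

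The mean gap between libraries of the same animal and libraries of different animals was 0.0439 to 2.63 points over the 6 pairs of marks. The SD of the 3 animals' gaps exceeded the mean gap in 5 of the 6, and only for H3K4me1 by H3K27ac, 1.80 ± 1.14 points, was the gap positive in all 3 animals. H3K27ac peaks were overlapped by H3K4me1 of the same animal at 61.8% and of the other animals at 59.2%, the widest of the 6 gaps, 2.63 points. This and 4 other gaps gave an exact one-sided p of 0.1667 over the 6 pairings of animals, the smallest possible, and the remaining one, H3K4me1 by H3K4me3, gave 0.333. The adjusted values were 0.2 and 0.333. With 1 shared base 3 of the 6 mean gaps were negative.

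For each combination, the 3 regions with the strongest marks among those with the same marks in all 3 animals are given by their position in the Cavpor3.0 assembly, counted from 1. Genes at these positions were not analysed here. The strongest region with H3K4me3 and H3K27ac was DS562862.1:48955584-48958462. Its H3K4me3 fold was 142, 121 and 78.7 and its H3K27ac fold 140, 119 and 110 in GuineaPig7, GuineaPig8 and GuineaPig9, with summits 22, 12 and 2 bases apart. All 3 hearts carried both marks there. The next were DS562899.1:3074286-3078147, with an H3K4me3 peak of 3862, 3577 and 3226 bases, and DS562897.1:8333429-8335759, with a mean H3K4me3 fold of 73.4 ± 5.49 and a mean H3K27ac fold of 119 ± 11.8.

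At the 3 strongest regions with all 3 marks in every animal, the H3K4me1 summit lay further from the H3K4me3 summit than the H3K27ac summit did. These distances carry no side and are to 1 H3K4me1 summit, so they do not show flanks. At DS564318.1:12378-13235 the H3K4me3 and H3K27ac summits were 10, 1 and 24 bases apart and the H3K4me1 summit lay 958, 954 and 941 bases from that of H3K4me3. The H3K27ac fold there was 141, 148 and 134. At DS562885.1:10929887-10933068 the H3K4me1 summit was 899, 1117 and 1227 bases away, and at DS562969.1:3545634-3548606 it was 613, 2510 and 727 bases away. In all 3 regions the acetylation summit was within 69 bases of the H3K4me3 summit, and the 3 hearts carried all 3 marks. Of all liver regions with the 3 marks, 29.0% ± 1.92 carried heart H3K4me1.

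The strongest H3K27ac regions with H3K4me1 and no H3K4me3 were long. DS562876.1:21691920-21706098 spans 14179 bases, with an H3K27ac peak of 13823, 10167 and 10172 bases and an H3K27ac fold of 41.1, 54.9 and 42.6. No heart had H3K4me3 there, and all 3 hearts had H3K27ac and H3K4me1. DS562861.1:42316164-42323520 and DS562870.1:41138197-41145502 followed, with a mean H3K27ac fold of 55.2 ± 10.1 and 80.7 ± 11.7. Both carried all 3 marks in the 3 hearts. Of all liver regions with H3K27ac and H3K4me1, 4.86% ± 1.31 carried heart H3K4me3. The strongest H3K4me1 regions with no other mark, DS562866.1:13688109-13689376, DS562873.1:37696940-37698267 and DS562975.1:1417684-1419500, had a mean H3K4me1 fold of 13.6 ± 0.7097, 13.7 ± 1.44 and 14.6 ± 2.38. No heart had H3K27ac at any of these 3, H3K4me3 was found in 1, 3 and 3 hearts and H3K4me1 in 3, 3 and 2. Of all regions with H3K4me1 by itself, 11.3% ± 1.75 carried heart H3K27ac, so its absence at 3 regions is near that share. Heart H3K4me3 lay on 6.04% ± 1.43 of them and heart H3K4me1 on 25.8% ± 4.55.

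The strongest region with H3K27ac by itself, DS562887.1:19426730-19427775, had a fold of 44.8, 53.2 and 45.8, and the others, DS562870.1:27705138-27706193 and DS562955.1:2732276-2732954, had means of 27.2 ± 7.63 and 17.3 ± 1.22. H3K4me3 was present at these regions in 2, 3 and 3 of the hearts, whereas of all regions with H3K27ac by itself 3.75% ± 1.04 carried heart H3K4me3. The strongest with H3K4me3 by itself, DS562881.1:24736057-24736379, had a fold of 15.3, 8.18 and 8.43, followed by DS562873.1:13301241-13301785 and DS562993.1:1748422-1749112 with means of 8.88 ± 1.06 and 8.92 ± 1.66, and 2, 2 and 3 of the hearts carried H3K4me3 there. H3K4me3 with H3K4me1 was strongest at DS562857.1:34412165-34413008, DS562882.1:16408057-16408777 and DS562932.1:2679254-2679716, where the mean H3K4me3 fold was 5.76 ± 0.650, 6.82 ± 2.46 and 7.32 ± 1.87, and all 3 hearts carried H3K4me3.

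The heart of the same animal gave a second readout of each liver combination. Liver regions with H3K4me3 and H3K27ac carried heart H3K4me3 at 90.1% ± 0.499 and heart H3K27ac at 88.1% ± 1.70, and regions with all 3 marks at 82.1% ± 2.29 and 80.1% ± 2.57 (n = 3). Regions with H3K4me3 by itself in liver carried heart H3K4me3 at 70.9% ± 4.36 but heart H3K27ac at 33.6% ± 9.74. Those with H3K4me3 and H3K4me1 and no liver acetylation carried heart H3K4me3 at 89.4% ± 1.20 and heart H3K27ac at 49.2% ± 19.6. Sites with H3K4me3 but no H3K27ac in liver were thus mostly H3K4me3 sites in heart too. Sites without H3K4me3 were mostly bare in heart: no heart mark was found at 63.0% ± 2.87 of regions with H3K27ac and H3K4me1, 68.7% ± 4.97 of those with H3K27ac by itself and 68.7% ± 3.94 of those with H3K4me1 by itself. Heart H3K27ac lay on 25.4% ± 1.21, 24.7% ± 5.62 and 11.3% ± 1.75 of these regions in the same order.

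**Figure D5:**
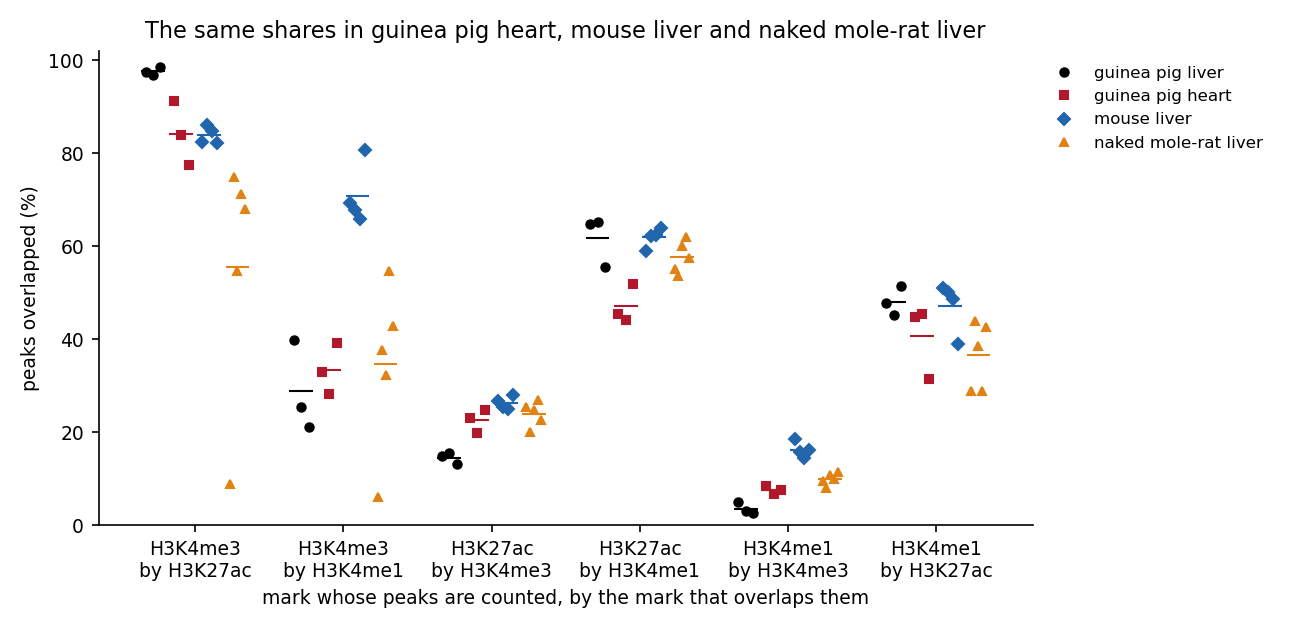
Percent of the peaks of 1 mark (y axis) overlapped by each other mark of the same animal (x axis), by 50% of the shorter peak, with 1 symbol per animal and short lines for means. Guinea pig livers lie above all others for H3K4me3 under H3K27ac, at 96.9% to 98.6%, and below all others for H3K27ac under H3K4me3 and H3K4me1 under H3K4me3.

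Set against the 3 other groups, guinea pig liver had the highest share of H3K4me3 peaks under H3K27ac and the lowest shares of H3K27ac and H3K4me1 peaks under H3K4me3, with no overlap between the animals of any 2 groups compared. One naked mole-rat liver, NMR30, stood apart, with 253457 H3K4me3 peaks against 27591 to 48726 in the other 4, so values are given with and without it. H3K4me3 under H3K27ac was 97.6% in guinea pig liver, 84.1% ± 6.86 in guinea pig heart, 83.8% ± 1.83 in mouse liver and 55.5% ± 27.2 in naked mole-rat liver. The difference from naked mole-rat liver was 42.1 points, and 30.4 points without NMR30. H3K27ac under H3K4me3 was 14.6% against 22.6% ± 2.46, 26.3% ± 1.32 and 23.9% ± 2.66 in the same order, and the difference from naked mole-rat liver was -9.36 points, or -8.98 without NMR30. H3K4me1 under H3K4me3 was 3.58% against 7.55% ± 0.870, 16.2% ± 1.76 and 9.98% ± 1.27, and the difference from naked mole-rat liver was -6.41 points, or -6.51 without NMR30.

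The share that set guinea pig liver furthest from mouse liver was H3K4me3 under H3K4me1, at 28.8% against 70.9% ± 6.64, a difference of -42.0 points with no overlap. With the summit inside it was -21.3 points and with 1 shared base -6.12 points. Against guinea pig heart, with 33.5% ± 5.56, the groups overlapped and the direction turned with the rule: -4.64 points at 50% overlap and 20.8 points with 1 shared base. H3K27ac under H3K4me1 was 61.8% in guinea pig liver and 61.9% ± 2.11 in mouse liver, and 47.1% ± 4.08 in guinea pig heart, with no heart above 51.8% and no liver below 55.6%.

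No difference between groups passed 0.05 after adjustment over the 18 comparisons. For mouse liver the 4 non-overlapping shares each gave an exact two-sided permutation p of 0.0286, the smallest that 3 against 4 animals allow, and an adjusted p of 0.0857. For naked mole-rat liver the lowest p was 0.0179, also with an adjusted p of 0.0857, and for guinea pig heart it was 0.1, with an adjusted p of 0.15. The 3 sets of comparisons share the guinea pig livers. Library numbers of the guinea pig hearts and naked mole-rat livers lie far from those of the guinea pig livers. For these groups the library series and the tissue or species cannot be told apart. Library numbers of the mouse livers lie closer. List lengths moved with the groups: mouse livers had 60398 ± 2773 H3K27ac and 95664 ± 12396 H3K4me1 peaks, covering 63.6 ± 3.28 Mb and 70.1 ± 6.53 Mb, less than in guinea pig liver. Guinea pig livers had the shortest H3K4me3 lists, 14782 to 16530 peaks. Guinea pig hearts had 21481 to 24629, mouse livers 17431 to 19301 and naked mole-rat livers 27591 or more. The H3K27ac extent was largest in guinea pig liver, 104 Mb against 69.7 Mb in guinea pig heart and 59.2 Mb in naked mole-rat liver. What part the extents had in the shares was not tested. With lists cut to equal numbers of peaks, H3K4me3 under H3K27ac was still 8.79 points higher than in mouse liver and H3K4me3 under H3K4me1 49.7 points lower. The shares of H3K27ac and H3K4me1 peaks under H3K4me3 also stayed lower than in each other group.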

How the data were processed

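Each deposited file is a peak list of 1 library, called by the authors against 1 input library, per the file names. The 3 liver lists of an animal share 1 input. MACS2 stands in the submitters' processing notes without a version. The build was Cavpor3.0, per the file names. Column 7 of the deposited lists was read as a linear ratio (fold) over input, column 9 as the deposited −log10 q-value, and column 10 as the deposited summit offset in bases (other). Depth is unknown.

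Overlaps, classes and distances were computed in Python (3.11.15; SciPy 1.17.1, NumPy 2.4.6, pandas 2.3.3) after tests on simulated lists. Fold was compared within a list only. Per-list values were compared by exact permutation tests, Benjamini-Hochberg adjusted within each family. The labels pair marks by animal, and the unpaired test is the main one. Named regions are the 3 per combination with the highest value of the lowest geometric mean fold over animals. Alternatives were 1 shared base, the summit inside the other peak, −log10 q of at least 4, equal numbers of peaks, mean values, width quartiles, each animal left out and a replicate block. Marks, lists and tests were chosen with earlier results of these data known. Peaks with both other marks against 1, the position classes of H3K4me1, the 1-base rule for fold and width, the summit rule between groups, and the fold contrast without NMR30 were added after seeing the data.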

Additional observations from a re-analysis of the deposited data

Results flagged for a closer look

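In 5 contrasts every guinea pig liver moved one way and every animal of another group the opposite way, out of 87 contrasts looked at. All concern H3K4me3 peaks that also carry H3K4me1, and values are differences of log2 medians. Contrasts chosen by opposite signs have groups that do not overlap, which puts the exact p at or near its smallest value. The p-values below therefore describe the choice and give no support of their own.

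H3K4me3 peaks with both other marks, against those with H3K27ac alone, had a log2 fold difference of -1.23 in guinea pig liver and 0.48 in mouse liver, so the groups differed by -1.71 (exact two-sided permutation p = 0.0286, adjusted p = 0.104 over the 87). For the width of the same peaks the values were -0.39 and 0.33, a gap of -0.72 (exact two-sided permutation p = 0.0286, adjusted p = 0.104). Guinea pig heart gave 0.23 in width, a gap of -0.62 (exact two-sided permutation p = 0.1, adjusted p = 0.185). In guinea pig liver these peaks were thus weaker and narrower, in mouse liver stronger and wider. The other groups had mean fold differences between these, -0.08 in guinea pig heart (-0.17 to 0.09) and -0.46 in naked mole-rat liver (-1.15 to 0.13). Without NMR30 the naked mole-rat mean was -0.29. A lower mean fold was therefore not particular to guinea pig liver. In width, naked mole-rat liver had -0.11 (-1.14 to 0.33), or 0.15 without NMR30. With 1 shared base as the rule, peaks with both other marks were higher in guinea pig liver, by 0.79 in fold and 0.47 in width.

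H3K4me3 peaks with H3K4me1 alone, against those with no other mark, had a log2 fold difference of -0.08 in guinea pig liver and 0.58 in mouse liver, a gap of -0.66 (exact two-sided permutation p = 0.0286, adjusted p = 0.104). In naked mole-rat liver it was 0.20, a gap of -0.28 (exact two-sided permutation p = 0.0357, adjusted p = 0.115), and without NMR30 it was 0.23, a gap of -0.31 (exact two-sided permutation p = 0.0286, unadjusted). The guinea pig sign did not hold under every setting: the mean was 0.00585 with 1 shared base, and within quartiles of width GuineaPig9 had 0.06. The guinea pig side of these contrasts rests on 84 to 266 peaks per list with H3K4me1 alone. In the 12 groups of 4 or 5 animals checked, no share of a single animal passed Dixon's criterion, the 8.78% of H3K4me3 peaks under H3K27ac in NMR30 included, although the length of its H3K4me3 list was far from the others.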

How the results depend on the processing

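Of 500 recomputed values with a test, 469 kept their direction, 31 turned, and none crossed 0.05. Tests of 3 against 3 cannot reach 0.05. Tests against mouse and naked mole-rat liver can before adjustment, with a smallest exact two-sided permutation p of 0.0286 and 0.0179. The replicate block (paired sign-flip over animals, smallest p 0.25) changed no call: the H3K4me3 gap of 68.8 points between H3K27ac and H3K4me1 had a p of 0.25 by this exact test. Cutting lists to equal numbers, the 14782 strongest peaks, changed most: shares became 74.3% and 4.18% for H3K4me3 under H3K27ac and H3K4me1, 67.4% and 28.1% for H3K27ac under H3K4me3 and H3K4me1 (a contrast of -39.3 points) and 33.3% for H3K4me1 under H3K27ac; width differences became 1.19 (H3K27ac minus H3K4me3), 0.92 (H3K4me1 minus H3K4me3) and -0.28 (H3K4me1 minus H3K27ac, also -0.17 with means), and differences from mouse liver 1.59 points (H3K27ac by H3K4me1) and -1.82 points (H3K4me1 by H3K27ac).

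With 1 shared base the shares were 76.0% (H3K4me3 by H3K4me1), 69.3% (H3K27ac by H3K4me1), 11.4% (H3K4me1 by H3K4me3) and 55.1% (H3K4me1 by H3K27ac). Fold of H3K4me3 with H3K4me1 minus none became 0.00585; both marks minus H3K27ac became 0.79 in fold and 0.47 in width for H3K4me3, and 0.12 and 0.057 for H3K4me1. Same-animal gaps became -0.405, -0.0269 and -0.0504 points for H3K4me3 by H3K4me1, H3K27ac by H3K4me3 and H3K4me1 by H3K4me3. Group differences became 20.8 (heart) and 30.1 (naked mole-rat liver) for H3K4me3 by H3K4me1 and 0.835 (mouse liver) for H3K27ac by H3K4me1. With the summit inside, shares were 18.5% (H3K4me3 by H3K4me1), 51.3% (H3K27ac by H3K4me1) and 43.0% (H3K4me1 by H3K27ac); H3K27ac with both minus with H3K4me3 became -0.89 in fold and -0.50 in width, and group differences 3.60 (heart, H3K4me3 by H3K4me1), 0.822 and -1.39 (mouse liver, H3K27ac by H3K4me1 and H3K4me1 by H3K27ac). At −log10 q of at least 4, H3K27ac by H3K4me3 was 17.7%, and the differences from heart and mouse liver became 0.583 (H3K4me3 by H3K4me1) and 0.875 (H3K27ac by H3K4me1). Leaving out 1 animal moved the differences from mouse liver between -1.74 and 3.05 points (H3K27ac by H3K4me1) and between -1.80 and 2.40 points (H3K4me1 by H3K27ac). The causes were not tested.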
